A study of Mus musculus with 22 samples.

Results

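Total liver mRNA of mice culled 2 h after an intraperitoneal injection of tunicamycin (Tm, 0.1 mg/kg) was compared with that of mice of the 0 h group, to describe the early response before the larger changes of later times. The comparison is between 6 of the 22 labelled libraries, 3 at each time, over the loci whose estimate the authors' software had completed in all 6, which were 39854 of 39897. The series also holds total mRNA at later times and heavy polysomal mRNA, the RNA carrying more than 3 ribosomes. All mice were C57BL/6 males aged 5 weeks, taken from an experiment of 15 animals. The mice of the 2 h group were injected at 8 am and culled at 10 am, and those of the 0 h group, which the methods call controls and the labels list with tunicamycin, were culled at 9 am. The caption of the paper's design overview lists 0 h among the collection times after injection. The methods do not state whether the 0 h mice were injected. Time after injection, injection itself and hour of day therefore cannot be told apart. Each library was made from poly(A) RNA of 0.01 g of liver, with strand information kept. Each time had 3 mice, and no label ties a library to a named mouse, so p-values measure the spread between libraries.

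Tm blocks the first step of N-linked glycosylation, and unglycosylated proteins then misfold in the endoplasmic reticulum (ER), the compartment where secreted and membrane proteins are folded. The unfolded protein response (UPR) answers this with 3 ER sensors. PERK phosphorylates eIF2α and so lowers translation initiation while the transcription factor ATF4 is made, and IRE1 and ATF6 raise the transcription of chaperones, folding enzymes and components of ER-associated degradation. Hepatocytes secrete large amounts of protein and carry an extensive ER, which makes the liver a common tissue for studying this response. The deposited tables name each locus, a group of overlapping transcripts, by a Cufflinks number and pair it with no gene symbol, position or sequence. The genes of the UPR were therefore not looked up here, nor was the liver label checked against hepatocyte markers, and loci are described by their number, level, length and behaviour.

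Counted fragments were 11282111, 17283500 and 10556153 in read groups 0, 1 and 2 at 0 h (the read group is the authors' number for a library) and 10597584, 9788578 and 10909529 at 2 h. Read group 1 at 0 h was the deepest of the 6, and the other 5 lay close together. Of the loci completed in all 6 libraries, 18312 had no fragment in any of them and 14912 had at least 1 fragment in every one. Thinned to the depth of the shallowest library, the libraries detected 17827, 17475 and 17626 loci at 0 h and 17411, 17390 and 17604 at 2 h. These ranges overlap. Loci at 0 in every library of 1 time and with at least 1 fragment in every library of the other numbered 26 for 2 h and 113 for 0 h, and none of either kind reached 5 fragments in each library. The part of the greater depth at 0 h in this difference was not tested.

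The loci left out are few but carry many fragments. In at least 1 of the 6 libraries, 37 loci were passed over by the authors' software for their excess of data and listed at 0, and the estimate of 6 more failed. Of the 37, 26 were passed over in all 6 libraries. Of the fragments counted, 9.95%, 2.15% and 8.14% lay on left-out loci in read groups 0, 1 and 2 at 0 h, and 7.61%, 8.77% and 14.2% at 2 h. The largest of these loci held 923792 fragments (8.19%) in read group 0 at 0 h, was passed over in read group 1 at 0 h, and held 673445 (6.38%) in read group 2 at 0 h. At 2 h it held 635118 (5.99%), 688737 (7.04%) and 551337 (5.05%). The counted libraries of the 2 times overlap in this share, and no left-out locus was tested.

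Most loci differed little between the times. Of the 12612 loci tested, 11677 (92.6%) had a fitted change under 1.5-fold at 2 h, and 5% lay below -0.50 and 5% above 0.51 on the log2 scale, around a median of 0.00. The SD of the change across loci was 0.353 and the median standard error of a single locus 0.159. Single libraries give the same picture on a scale that needs no test. Among the 9456 loci that averaged 50 counts or more, from 55 to 91 were at least 2-fold apart between pairs of 0 h libraries (median 87 of 3 pairs). Between pairs of 2 h libraries the number was from 69 to 157 (median 120 of 3 pairs), and between a library at 0 h and one at 2 h it was from 133 to 214 (median 174 of 9 pairs). Pairs across times thus overlapped in number with pairs of 2 h libraries and lay above every pair of 0 h libraries. The numbers depend on the minimum count. With a minimum of 10 the medians were 146, 194 and 270 for pairs at 0 h, at 2 h and across times, and with a minimum of 200 they were 32, 52 and 90.

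**Figure D1:**
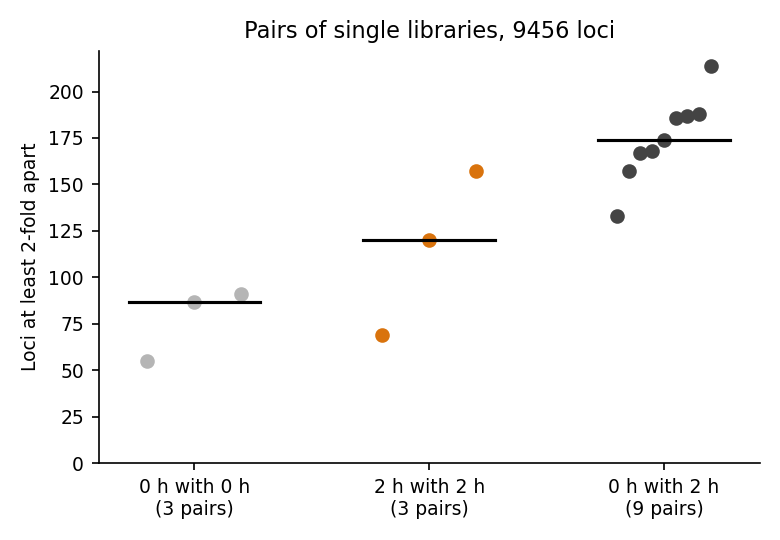
Number of loci at least 2-fold apart (vertical axis, from 0) for every pair of single total mRNA libraries, on the log2(CPM + 1) scale over 9456 loci. Each point is a pair, lines are medians, and the 9 pairs across times (133 to 214) lie above the 3 pairs of 0 h libraries (55 to 91) and overlap with the 3 pairs of 2 h libraries (69 to 157).

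The closest pair across times was read group 2 at 0 h and read group 2 at 2 h, with 133 loci apart. These libraries also resembled each other in how they weighted short and long loci, where the relative length of a locus was estimated from its fragments and FPKM. In read group 2 at 0 h the shortest of 5 equal groups of loci lay 0.08 (median log2) above the other 0 h libraries and the longest group 0.14 below them. In read group 2 at 2 h the shortest group lay 0.07 above the mean of 0 h and the longest 0.11 below it. Read groups 0 and 1 at 2 h went the other way, with -0.07 and -0.11 for the shortest group and 0.03 and 0.07 for the longest. This library difference runs across both times, and when each library's trend with length was removed, an alternative chosen after seeing the data, 56 loci were called in place of 52, 50 of them in both lists.

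At 2 h after Tm, 52 loci (0.412% of those tested) differed in total mRNA from 0 h by 2-fold or more and passed edgeR's quasi-likelihood test (threshold 0.05 after Benjamini-Hochberg adjustment). Of these, 42 were higher (0.333%) and 10 lower (0.0793%). The medians of the rises and the falls were alike in size, and the rises reached further. The rises ran from 2.01-fold to 47.8-fold with a median of 3.06-fold, 17 of them at least 4-fold and 7 at least 8-fold, while the falls ran from 2.12-fold to 4.55-fold with a median of 3.02-fold, 2 of them at least 4-fold. In both directions together, 0.151% of the loci tested were called at 4-fold and 0.0555% at 8-fold. The test took in the 3 libraries at 4 h, which share the estimate of the spread and count in the filter on low values. With 0 h and 2 h alone 46 loci were called, 34 higher and 12 lower, and 31 of the 42 rises and all 10 falls were among them. Of the 7 loci at 8-fold, 1 had 0, 1 and 1 fragments at 0 h and 10, 9 and 5 at 2 h. It passed the filter only with the 4 h libraries, and when a library at 0 h or 2 h was removed it kept its call in 1 fit of 6. In these bulk samples a change in the amount of an mRNA per cell and a change in the number of cells of a type cannot be told apart. The spread between libraries, as a biological coefficient of variation, was 0.131 among 0 h and 0.149 among 2 h libraries. By DESeq2, 90 loci were called, among them all 52, and limma on the deposited FPKM called 26, of which 22 were among the 52.

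**Figure D2:**
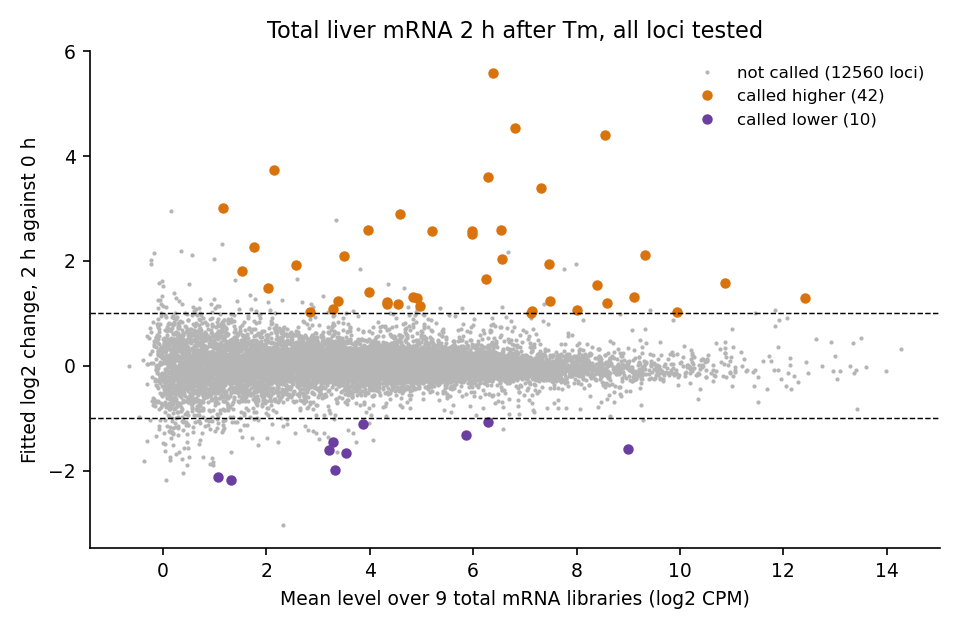
Fitted log2 change at 2 h against 0 h (vertical axis) and mean level in log2 CPM (horizontal axis) of the 12612 loci tested. Orange points are the 42 loci called higher, purple points the 10 called lower, and dashed lines mark a 2-fold change. The called loci that rose lie between log2 CPM values of 1.16 and 12.4 and reach a log2 change of 5.58.

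Rises outnumbered falls among the loci that passed the test and not among those that reached 2-fold without it. Whatever the size of the change, 101 loci passed (0.801%), 79 higher and 22 lower. A fitted difference of 2-fold or more was reached by 249 loci (1.97%), and the 197 of these that did not pass were 79 higher and 118 lower. Their median level was 18 counts, against 210.8 counts for called loci, and 121 of them did not overlap between the times. An unadjusted p under 0.05 was reached by 1490 loci (11.8%), 840 higher and 650 lower. The libraries of the 2 times did not overlap in 2012 loci (16%), with 1080 higher (8.56%) and 932 lower (7.39%), so the directions were nearer to balance among all loci than among the called ones. All 52 called loci were among those without overlap.

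The largest rise was at XLOC_032013, a locus of 0.367 times the length of the median locus. It had 12, 4 and 25 fragments in read groups 0, 1 and 2 at 0 h and 596, 681 and 281 at 2 h. As CPM, which scales the counts to the normalized size of each library, these were 1.145, 0.2405 and 2.63 at 0 h and 62.9, 73.2 and 31.5 at 2 h. Every 2 h library was thus more than 10 CPM above every 0 h library, and read group 2 was both the highest of the 0 h libraries and the lowest at 2 h. The mean rose from 1.34 ± 1.21 CPM (SD, n = 3) to 55.9 ± 21.7 CPM (SD, n = 3), with a log2 change of 5.58 (standard error 0.511, adjusted p = 0.000364 in edgeR's quasi-likelihood test). The change was 4.90 without read group 1 and 6.51 without read group 2 at 0 h, the lowest and highest of the 9 fits that each left out a library, and 4.64 by limma on log2(FPKM + 1). At 4 h, in libraries compared with the same 0 h group, the locus had 176, 254 and 145 CPM.

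The smallest adjusted p belonged to XLOC_002882, also a short locus with a relative length of 0.346. Its level was 5.92, 5.89 and 12.4 CPM at 0 h and 188, 164 and 147 CPM at 2 h. The 2 h libraries lay close together, and the 0 h libraries were separated mainly by read group 2. The log2 change was 4.40 (standard error 0.253, adjusted p = 9.7e-06 in edgeR's quasi-likelihood test), and leaving out a library gave from 4.19 to 4.81. At 4 h its libraries held 957, 1084 and 810 CPM.

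Among the falls, the largest at a mean of at least 50 counts was at XLOC_027169, with a relative length of 0.360. Its level was 23.95, 12.3 and 11.8 CPM at 0 h and 6.545, 2.795 and 2.69 CPM at 2 h. Read group 0 was the highest library at both times. The lowest 0 h library remained above the highest 2 h library, as the condition for naming a locus required. The log2 change was -1.98 (standard error 0.359, adjusted p = 0.0302 in edgeR's quasi-likelihood test). Fits that each left out a library gave from -2.53 to -1.59. It no longer passed without read group 0 at 0 h (-1.59, adjusted p = 0.0751), without read group 1 at 2 h (-1.78, 0.0786) or without read group 2 at 2 h (-1.77, 0.0751), nor in limma on FPKM (-1.71, 0.0784). The fall rested on from 24 to 62 fragments in each 2 h library.

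XLOC_009165 had the smallest adjusted p among the falls by the same conditions and was 2.00 times as long as the median locus. It held 19.2, 13.6 and 22.0 CPM at 0 h and 6.02, 6.45 and 4.602 CPM at 2 h, a drop to a level at which the 3 libraries varied little. The log2 change was -1.67 (standard error 0.200, adjusted p = 0.0025 in edgeR's quasi-likelihood test) and ranged from -1.85 to -1.51 over the fits that each lacked a library. On the log2(FPKM + 1) scale with limma it was -1.03 (adjusted p = 0.0201). At 4 h the locus held 11.3, 9.79 and 10.1 CPM, and XLOC_027169 held 11.01, 9.47 and 7.335 CPM. These 4 h values lie between the means of 0 h and 2 h for both loci.

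**Figure D3:**
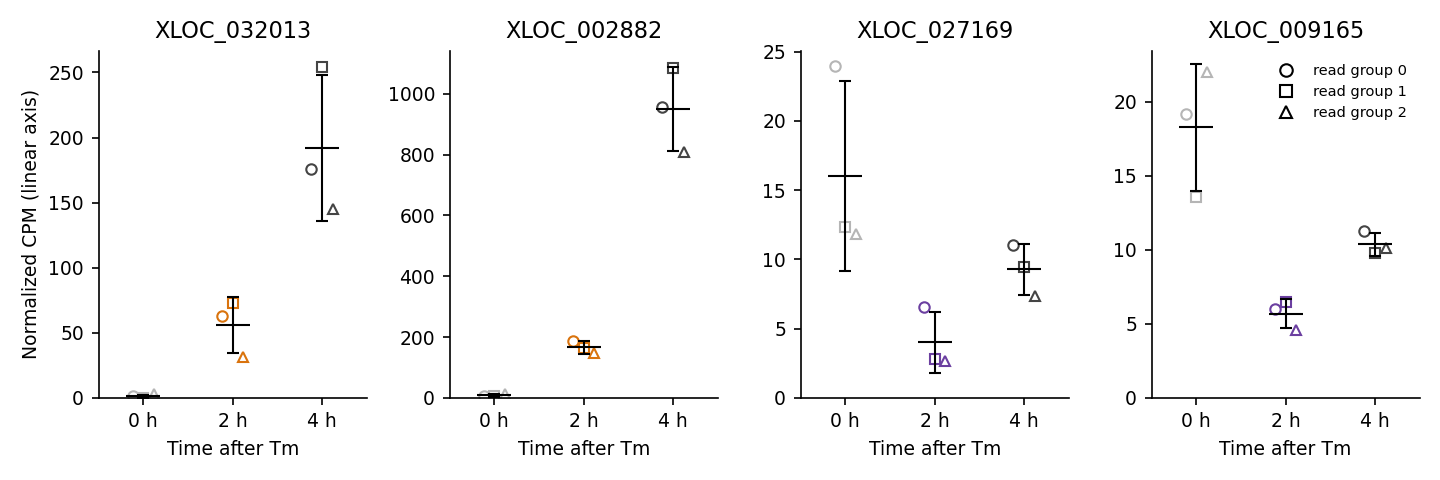
Normalized CPM (vertical axes, linear, each from 0) of the 4 named loci in total mRNA at 0 h, 2 h and 4 h. Symbols are read groups 0 to 2, and the bar and whiskers are the mean and SD of 3 libraries. XLOC_032013 and XLOC_002882 were higher in all 3 libraries at 2 h than in any at 0 h, and XLOC_027169 and XLOC_009165 lower. This lack of overlap was a condition for naming a locus.

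The 42 rises fall into groups by size. The 7 loci that rose at least 8-fold were at low levels in 0 h liver, with means from 0.0552 to 8.08 CPM (median 3.83), and reached from 0.862 to 166 CPM at 2 h (median 55.9). Without the locus that passed the filter only with the 4 h libraries, the lower ends were 0.306 and 2.69 CPM. The 10 loci that rose from 4-fold to under 8-fold had means from 1.46 to 110 CPM in 0 h liver and from 7.34 to 475 CPM in 2 h liver. The 21 loci that rose from 2-fold to under 3-fold reached higher levels, from 2.70 to 1543 CPM in the 0 h group and from 7.89 to 3803 CPM at 2 h, and 4 loci lay between these groups. Of the 42, 41 had at least 1 fragment in every 0 h library, 3 had under 10 fragments in each of them, and none was at 0 in all 3. The filter took out loci with few fragments, and the same count was not made over all loci tested.

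The called rise with the most fragments, picked out after its values were seen, held 1778, 1203 and 1649 CPM at 0 h and 4612, 3788 and 3009 CPM at 2 h. Its log2 change was 1.30 (standard error 0.176, adjusted p = 0.00595 in edgeR's quasi-likelihood test). This 2.47-fold rise kept its call in all 9 fits that each left out a library. The called fall with the most fragments, picked out in the same way, went from 515, 978 and 540 CPM to 323, 149 and 204 CPM, a log2 change of -1.59 (standard error 0.279, adjusted p = 0.0235 in edgeR's test). It was called in 7 of the 9 fits, and edgeR's adjusted p was 0.0532 without read group 1 at 0 h and 0.0673 without read group 2 at 2 h.

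Called loci were found in each of 5 groups by abundance. When loci were divided into 5 equal groups by mean FPKM, which allows levels to be compared between loci of different length, the highest group (at least 24.2 FPKM) held 19 called loci (0.753%), 18 of them higher and 1 lower. The other groups held 6 (0.238%), 11 (0.436%), 6 (0.238%) and 10 (0.397%), from the lowest up. Precision differed between them, since the median standard error of the log2 change fell from 0.346 in the lowest group to 0.109 in the highest. This mean takes in the 2 h libraries, so a rise moves a locus up and a fall moves it down. By mean FPKM at 0 h alone, a grouping chosen after seeing the data, the groups held 10 (0.396%), 14 (0.555%), 8 (0.317%), 7 (0.278%) and 13 (0.515%) called loci from the lowest up, with 12 rises and 1 fall in the highest. The median of the called rises was 15.9 FPKM over the 6 libraries and 4.08 FPKM at 0 h, and that of all loci tested 5.78 and 5.56. For the called falls the medians were 3.17 and 4.55 FPKM.

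Median length also differed between the called groups, but their ranges overlapped and the difference was not tested. The median relative length was 0.764 in the 42 rises, which ranged from 0.157 to 2.59, and 1.85 in the 10 falls, which ranged from 0.270 to 2.42. In 5 equal groups by relative length, from the shortest to the longest, 14, 14, 7, 9 and 8 loci were called (0.555%, 0.555%, 0.278%, 0.357% and 0.317%). The longest group was the one with more falls than rises, 5 against 3, and groups 2 and 3 had no fall. The median change over all loci of a group was between -0.03 and 0.02 on the log2 scale. The part that the uneven weighting of short and long loci between libraries had in these counts was not tested beyond the removal of the trend.

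The 3 libraries at 2 h did not show the rises equally. In 32 of the 42 loci read group 0 was the highest of the 2 h libraries, and in 29 read group 2 was the lowest. Relative to the mean of 0 h on the log2(CPM + 1) scale, the median of the 42 loci was 1.73 in read group 0, 1.23 in read group 1 and 1.17 in read group 2 at 2 h. In the 0 h libraries the same medians were 0.04, -0.13 and 0.11. The falls had medians of -1.14, -1.47 and -1.54 at 2 h, so that read group 0, the library with the largest rises, had the smallest falls. These loci were called from the same libraries, and the medians describe them without a test.

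**Figure D4:**
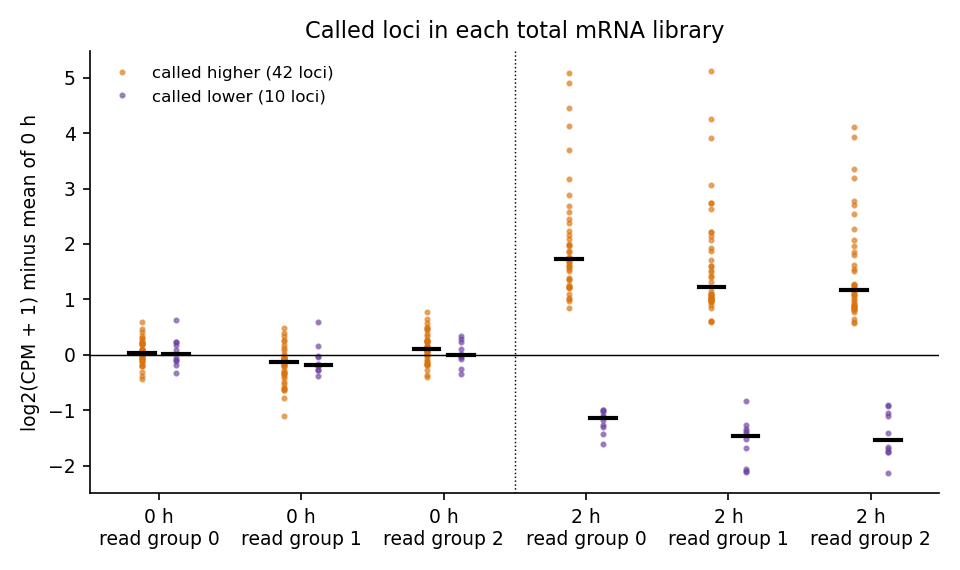
Level of each called locus in each of the 6 total mRNA libraries, as log2(CPM + 1) minus the mean of the 0 h libraries (vertical axis). Orange points are the 42 loci called higher, purple points the 10 called lower, and black bars are medians. Read group 0 at 2 h has the highest median of the rises (1.73), against 1.23 and 1.17 in the other 2 h libraries.

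Together the 42 loci took 0.379%, 0.261% and 0.369% of the normalized library at 0 h and 1.12%, 0.892% and 0.752% at 2 h. The 10 falling loci took 0.0807%, 0.124% and 0.0881% at 0 h and 0.0447%, 0.0258% and 0.0335% at 2 h. The 3 libraries at 2 h lay above all 0 h libraries in the first sum and below all of them in the second. Both orders follow from the choice of loci, since no called locus overlapped between the times. In the 4 h libraries, which were compared with the same 0 h mice, the 42 loci took 2.36%, 2.70% and 2.53%, and the 10 falling loci 0.0826%, 0.0804% and 0.0709%. These sums lean on single loci. Among the rises, the locus with the most fragments made up 0.178%, 0.12% and 0.165% of the 0 h libraries. The same locus made up 0.461%, 0.379% and 0.301% at 2 h and 1%, 1.15% and 1.16% at 4 h. Among the falls, the locus with the most fragments made up 0.0515%, 0.0978% and 0.054% of the 0 h libraries. At 2 h that locus made up 0.0323%, 0.0149% and 0.0204%. The locus with the most fragments made up 0.0623%, 0.0653% and 0.0576% of the 4 h libraries among the falls, and the other 9 summed to 0.0203%, 0.0151% and 0.0133%, against 0.0292%, 0.0265% and 0.0340% at 0 h. All 10 falls had a 4 h mean under that of 0 h (52% of all loci tested did), and in 8 of them every 4 h library lay below every 0 h library (21%). Of the 42 rises, 37 had a 4 h mean above that of 0 h (48% of all loci tested) and 5 below it. Every 4 h library lay above every 0 h library in 36 of the rises (24.4%) and below every one in 4. The loci were called against the same 0 h libraries, so these shares are not what called loci would give without a change at 4 h. Among those 5, the one with the most fragments had means of 51.7, 213 and 20.6 CPM at 0 h, 2 h and 4 h.

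How far the called lists depend on single libraries was read by making the calls without a library and then looking at the library left out. Without read group 2 at 2 h, 54 loci were called higher. In that library 53 of them lay above every 0 h library, as 29.3% of all loci did, and the median log2 difference was 0.912. Of the 54, 24 were at least 2-fold above the 0 h mean (0.698% of all loci). Without read group 0 at 2 h, 21 loci were called higher, and all 21 lay above every 0 h library in read group 0 (30.6% of all loci did so), with a median log2 difference of 2.38. Of the 21, 19 were at least 2-fold above the 0 h mean (1.09% of all loci). Without read group 1 at 2 h, 48 were called higher, and 42 of them lay above every 0 h library in read group 1 (29.8% of all loci), with a median of 1.06. Of the 48, 28 were at least 2-fold above the 0 h mean (0.50% of all loci). For the 0 h libraries, 29 loci were called higher without read group 0, 32 without read group 1 and 36 without read group 2. In the library left out, 29, 28 and 35 of these lay below every 2 h library (25.9%, 23.9% and 26.9% of all loci), with median log2 differences of 1.44, 1.67 and 1.17. The library left out was compared with libraries that had made the calls, so the share over all loci is not what called loci would give without a change, and these counts are a description. Lists of falls made in this way held 6, 13 and 15 loci without read groups 2, 0 and 1 at 2 h. Of these, 6, 13 and 11 lay below every 0 h library in the one left out (29.7%, 27.1% and 29.0% of all loci). At least 2-fold below the 0 h mean were 4, 6 and 6 (0.531%, 0.436% and 0.737% of all loci). Without read groups 0, 1 and 2 at 0 h, 6, 16 and 8 falls were called. The library left out lay above every 2 h library in 6, 13 and 7 of them (24.4%, 24.2% and 25.1% of all loci).

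The total number of calls was lowest without read group 0 at 2 h. In that fit, 34 loci were called in place of 52, with 21 higher and 13 lower, and 27 of the 34 were among the 52. Leaving out the other libraries gave from 35 (without read group 0 at 0 h) to 63. Falls alone numbered 16 without read group 1 at 0 h, 6 without read group 0 at 0 h, 6 without read group 2 at 2 h and 15 without read group 1 at 2 h, against 10 with all libraries. In every one of the 6 fits that each left out a library at 0 h or 2 h, 19 of the 42 rises and 3 of the 10 falls were called. All 52 loci kept their sign in each of the 9 fits that tested them. None of them overlapped between the times, so leaving out 1 library could hardly have reversed a sign. By size, 8 of the 10 loci that rose from 4-fold to under 8-fold were called in all 6 fits. So were 5 of the 7 that rose at least 8-fold and 5 of the 21 under 3-fold. A call also needs a 2-fold change, so loci near 2-fold can lose it through a small shift of the estimate.

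Heavy polysomal mRNA at 0 h and 2 h gave a second readout of the called loci in other libraries, though not in other animals. The authors' group means were used for it, since the tables average 3 polysomal read groups at each time while the labels list 2 libraries, and no test was made. With 3 mice at each time, polysomal and total RNA of a time came from the same small set of livers. All 42 loci called higher in total mRNA were also higher in polysomal mRNA at 2 h, and all 10 called lower were lower, where 55.8% of all loci tested were higher and 44.2% lower. At least 2-fold polysomal changes were seen in 32 of the 42 rises and in 7 of the 10 falls, against 2.37% and 2.29% of all loci in each direction.

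The median log2 change of the 42 rises was 1.62 in the total means and 1.65 in the polysomal means, and 24 of the 42 rose less in polysomal than in total mRNA, where 45.3% of all loci tested had the lower change in polysomal mRNA. For the 10 falls the medians were -1.58 and -1.09, and 7 fell less in polysomal mRNA, where the polysomal change was not the lower one in 54.7% of all loci tested. With 8 added to each mean in place of 1, the polysomal medians were 1.40 for the rises and -1.06 for the falls. The loci were chosen by their change in total mRNA, and the part of that choice in these counts was not tested. XLOC_032013 went from a mean of 5.87 to 664 scaled fragments in polysomal mRNA, a log2 change of 6.60 against 5.29 in total mRNA, and XLOC_002882 from 46.8 to 2161, or 5.50 against 4.36. XLOC_027169 fell from 270 to 44.7 scaled fragments, a log2 change of -2.57 against -1.97. XLOC_009165 fell in total mRNA by 1.65 on the log2 scale, while its polysomal mean moved from 93.0 to 77.8, a log2 change of -0.26 and the smallest of the 10.

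**Figure D5:**
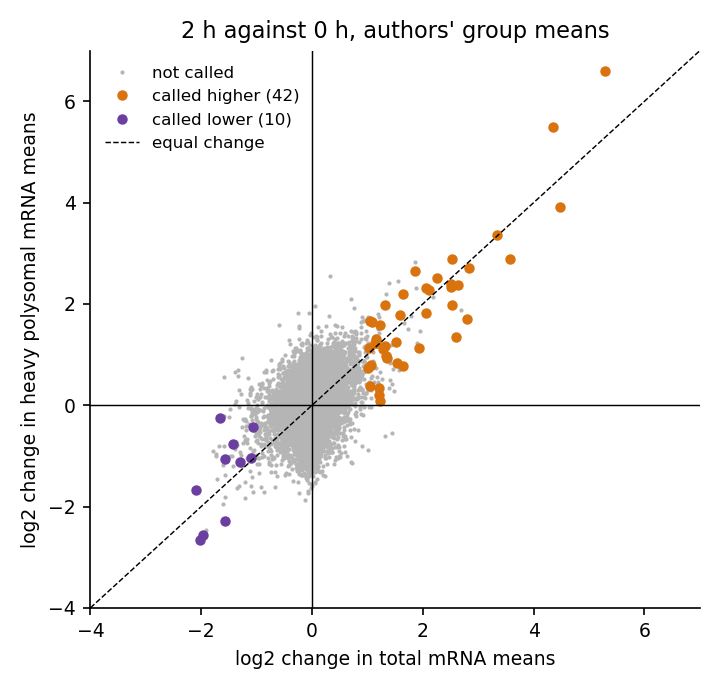
Log2 change at 2 h against 0 h in the authors' means of total mRNA (horizontal axis) and of heavy polysomal mRNA (vertical axis), on the log2(mean + 1) scale. Grey points are loci not called, orange and purple points the 42 and 10 loci called higher and lower in total mRNA, and the dashed line marks equal change. All 42 rises lie above 0 and all 10 falls below 0 in polysomal mRNA.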

How the data were processed

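Per the submitters' processing notes, single-end reads were aligned with TopHat2 2.0.13 to GRCm38 and quantified with Cufflinks 2.2.1. The authors deposited raw fragment counts per locus and library, without scaling, and FPKM values corrected for fragment bias and multiply mapped reads. The authors also deposited group means, a signal of fragments divided by size factors and averaged over read groups. Of 81 read groups, 72 were not used one by one, because they belong to groups outside the labels or outside this comparison. The 4 group mean columns for 0 h and 2 h were used, of 27.

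Counts of 9 total mRNA libraries (0 h, 2 h and 4 h, which share the estimate of the spread) were fitted with edgeR 4.0.16 in R 4.3.3 after TMM and filterByExpr, and 2 h was tested against 0 h with Benjamini-Hochberg adjustment over all loci. The 4 loci not completed in a 4 h library were left out of the fit. Alternatives used DESeq2 1.42.0, limma 3.58.1 on log2(FPKM + 1), upper-quartile scaling, other filters and thresholds, 0 h and 2 h alone, a replicate block, and fits lacking 1 library. The edgeR, replicate block, DESeq2 and limma fits were tested on simulated data. Named loci are, in each direction, the largest change and the smallest adjusted p among those called that averaged 50 counts or more and whose times did not overlap. At most 2 are named in each direction, because the files pair loci with no gene names. Relative length is the median over libraries of fragments over FPKM, for at least 10 fragments, scaled to the median locus. The comparison and tests were chosen with earlier results of these data known.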

Additional observations from a re-analysis of the deposited data

How the results depend on the processing

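Of 20 alternatives, 14 gave a count of called loci within 1.5 times of 52. DESeq2 called 90 loci, and testing every locus with at least 1 count gave 135, of which 84 were higher and 51 lower. Limma on FPKM called 26. Dropping the minimum fold change gave 101, and a 2-fold change with no adjusted p gave 249, 121 higher and 128 lower, so the excess of rises was absent there. Leaving out each of the 9 fitted libraries gave from 34 to 63 loci. The lowest came without read group 0 at 2 h. When read group numbers were entered as a replicate block, 52 loci were called, 39 higher and 13 lower, and 46 of them were shared with the unpaired fit. In edgeR's test, 1705 loci had an unadjusted p under 0.05 with the block and 1490 without it. Libraries of the same number had correlations of deviations of 0.08, 0.04 and 0.35 between 0 h and 2 h. Only read group 2 correlated best with its own number at both times. With 3 libraries at each time, these values cannot decide whether the numbers pair the libraries. Upper-quartile scaling shifted the median change of all loci by less than 0.02. The 4 named loci were chosen without overlap between the times, so a reversal was hardly possible. Of their 71 values, 67 kept call and direction, 4 lost the call, all of XLOC_027169, and none reversed. The cause of these differences was not tested. Grouping loci by FPKM at 0 h alone, a mean without the 2 h values and added after seeing the data, lowered the calls in the highest abundance group from 19 to 13 and raised those in the lowest from 6 to 10. The lowest of the 5 abundance groups had a median mean count of 21.2 and a median standard error of 0.346 on the log2 scale, and the part of depth in its number of calls was not tested.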
